A study of Mus musculus with 4 samples.

Results

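The regions described here are stretches of protein-coding exon, away from promoters, in which H3K9ac was called higher in HT22 cells given supplemented choline. H3K9ac is the acetylation of lysine 9 on histone H3. HT22 is an immortalised mouse hippocampal line, kept for 48 h in 70 µM choline chloride (supplemented) or 5 µM choline chloride (control), with no other difference between the cultures given in the labels. The series holds 4 libraries from chromatin immunoprecipitation and sequencing (ChIP-seq), 2 of H3K9ac ChIP DNA and 2 of input DNA, without a label that ties a library to a choline level. What was deposited is 1 list of 45855 differential regions, in which the authors assigned 45495 regions to condition 2 and 360 to condition 1 (99.2% to condition 2). Region names put 5 before 70, and on that basis condition 2 is taken to be 70 µM and condition 1 to be 5 µM. With 2 ChIP libraries in all, neither level had a replicate, and no difference between levels was tested.

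A 70 µM region was taken when its midpoint lay in the coding part of an exon of a protein-coding transcript (GENCODE M21, build mm10) and more than 1000 bp from every annotated transcript start of any gene type. This gave 1057 regions, 2.32% of the 70 µM regions (exact 95% interval 2.19 to 2.47). They lay in 1029 of 148530 coding exons that had at least 1 base over 1000 bp from a start (0.693%), and in 950 of 19035 protein-coding genes with such sequence (4.99%). Of the 5 µM regions, 4 of 360 met the same rule (1.11%, 0.303 to 2.82). The working name of the set is "internal coding exons", but the rule asks for distance from a start and not for a middle exon: 697 regions were in an internal coding exon, 225 in the last, 61 in the first and 74 in an exon that held the whole coding sequence of its transcript. They are called coding-exon regions below, and the 25 Mb of coding sequence over 1000 bp from any start is called eligible coding sequence.

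Acetylation of histone H3 at lysine 9 is written by acetyltransferases such as GCN5 and PCAF and removed by deacetylases. The mark is best known from the nucleosomes around active transcription starts, where it is read by bromodomain and YEATS proteins and goes along with polymerase release, and it also marks active enhancers. Inside genes it is usually low. Exons are nonetheless known to carry more nucleosomes than the introns around them, GC-rich DNA favours nucleosomes, and some coding exons of vertebrates also work as enhancers.

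The sequences of 6 coding-exon regions follow, in the direction of the gene, from RefSeq's GRCm38.p6. The first 4 were chosen by highest score among regions up to 300 bp long. They come from a first, an internal and a last coding exon, across an end of its coding part, and from the gene that held the most. The last 2, from a gene of phosphatidylcholine synthesis and a gene of the glucocorticoid receptor's chaperone, were chosen after their values were seen. Capitals mark the coding bases of the exon, and lower case marks intron, leader and stop codon. At Clec3b the print ends at the stop codon, and the region itself ran on past it.
Rfx2 (chr17:56808217-56808416, minus strand): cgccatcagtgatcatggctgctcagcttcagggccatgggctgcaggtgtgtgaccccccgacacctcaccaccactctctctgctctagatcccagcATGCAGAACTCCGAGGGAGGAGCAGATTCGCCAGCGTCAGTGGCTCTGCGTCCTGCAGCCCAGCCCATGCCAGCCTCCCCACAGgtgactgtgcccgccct
Ccdc130 (chr8:84260291-84260452, minus strand): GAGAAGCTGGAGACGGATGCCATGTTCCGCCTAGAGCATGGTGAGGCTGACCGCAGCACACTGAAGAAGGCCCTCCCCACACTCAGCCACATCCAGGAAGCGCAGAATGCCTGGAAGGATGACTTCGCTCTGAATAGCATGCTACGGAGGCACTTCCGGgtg
Clec3b (chr9:123157013-123157188, plus strand): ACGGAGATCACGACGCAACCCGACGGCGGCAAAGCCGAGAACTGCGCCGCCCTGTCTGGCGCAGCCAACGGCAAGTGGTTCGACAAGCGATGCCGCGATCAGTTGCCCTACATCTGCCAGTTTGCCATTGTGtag
Espl1 (chr15:102312922-102313048, plus strand): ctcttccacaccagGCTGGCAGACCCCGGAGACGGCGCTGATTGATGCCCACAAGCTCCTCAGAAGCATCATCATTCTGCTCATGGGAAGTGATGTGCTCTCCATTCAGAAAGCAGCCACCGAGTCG
Pcyt1a (chr16:32471278-32471397, plus strand): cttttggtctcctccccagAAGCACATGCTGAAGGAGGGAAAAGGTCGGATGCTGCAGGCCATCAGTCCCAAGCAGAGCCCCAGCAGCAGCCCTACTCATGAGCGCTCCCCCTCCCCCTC
Hsp90ab1 (chr17:45568377-45568496, minus strand): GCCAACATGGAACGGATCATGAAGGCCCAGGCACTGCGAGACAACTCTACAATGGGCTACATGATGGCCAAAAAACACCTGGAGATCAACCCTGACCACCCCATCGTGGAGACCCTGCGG

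These 6 regions show how the set lies on gene structure. The Rfx2 region (score 24.89 in the authors' deposited table) covered the whole 84 bp of coding sequence in exon 2 of 18 and ran into intron on both sides, so that the start codon stood inside it, 22622 bp from the nearest annotated start of transcription. Rfx2 encodes a transcription factor of ciliary genes. The Ccdc130 region (28.16) filled all but the start of the 173 bp of exon 8 of 10 and passed the splice donor by a few bases. The Clec3b region (26.71) held the end of the coding sequence of tetranectin, a secreted plasminogen-binding protein, and with 18 CpG sites it was the richest in CpG among the 6. The Pcyt1a region (14.02) began in the intron before the last coding exon and held 2 CpG sites, and the Hsp90ab1 region (9.18) lay wholly in exon 10 of 11.

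Coding-exon regions were short and mostly crossed an end of the coding part of the exon. Their median width was 173 bp (quartiles 144 and 200, range 120 to 681), against 166 bp for intronic, 163 bp for intergenic and 183 bp for start-site regions. Of the 1057, 362 lay wholly in the coding part of the exon (34.2%), 486 crossed 1 end of it (46%) and 209 held the whole coding part and ran past both ends (19.8%). A window of 173 bp around every midpoint lay wholly in the coding part of the exon for 35.1% of coding-exon regions. The same held for 30.04% of all eligible coding bases taken as midpoints. The midpoint was 52 bp from the nearest end of the coding part at the median, against 47 bp over all eligible bases. Coding bases made up 78.8% of a region at the median. By window and by distance to the nearest end, the regions sat slightly deeper in the coding part than an average base of eligible coding sequence.

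Scores, which are the authors' own values per region, were spread widely. Their median in the authors' deposited table was 8.35 (quartiles 4.82 and 16.11, range 3.23 to 28.16). Intronic regions had a median score of 8.61 there, intergenic regions 9.24 and start-site regions 5.04. The plot of scores by class has a vertical step at 19.01, which is the most frequent value in the authors' deposited table and which 52 coding-exon regions shared (4.92%, against 6.67% of intronic and 9.09% of intergenic regions). Score did not go with width over the 1057 regions (Spearman's rank correlation -0.012), and hardly with GC (-0.1); all points come from the same pair of libraries.

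**Figure D1:**
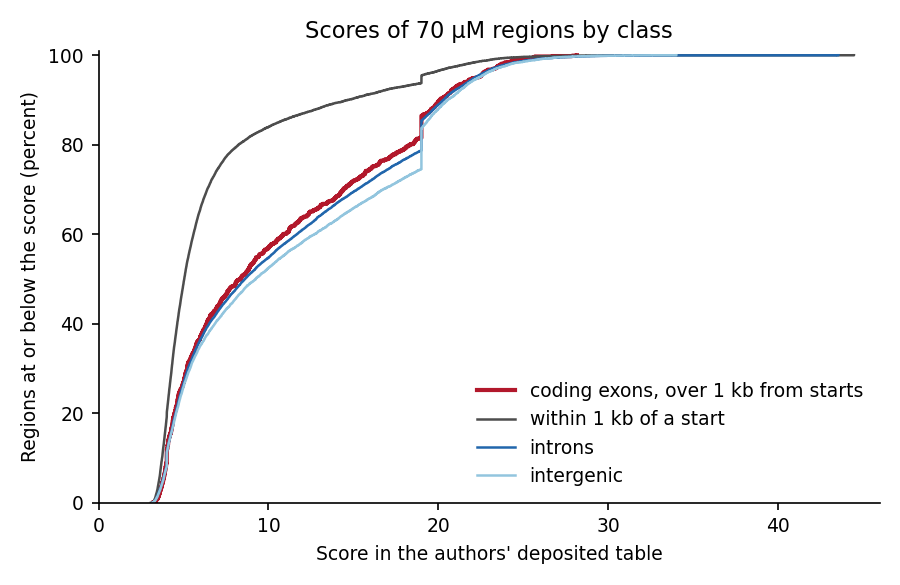
Share of 70 µM regions at or below each score of the authors' deposited table, in percent, for 4 classes of region. Coding-exon regions (red, median 8.35) run close to intronic regions (8.61), and start-site regions (5.04) lie to the left of both.

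Coding-exon regions were richer in GC than eligible coding sequence. Their median GC was 56.2% (quartiles 52.0 and 60.1, range 31.01 to 74.12). In windows of 173 bp around the midpoint, the median was 56.6% for coding-exon regions and 50.3% over all eligible coding bases, and 82.1% of coding-exon regions but 50.6% of eligible bases had a window of at least 50% GC. CpG content differed less. CpG observed over expected had a median of 0.368 in these windows for coding-exon regions and 0.32 for all eligible bases, and it was above 0.6, a value often used for CpG islands, in 15.2% and 11.6% of them. Measured over each region's own width instead, 36.2% of start-site regions, 15.3% of coding-exon regions and 3.49% of intronic regions were above 0.6. The difference in GC was not tested, since regions are no replicates of a choline level.

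The number of regions per Mb of eligible coding sequence climbed with GC. It was 7.22 per Mb in windows under 40% GC (27 regions, exact Poisson 95% interval 4.76 to 10.5), 21.7 per Mb between 45 and 50% (110 regions, 17.9 to 26.2), 78.9 per Mb between 55 and 60% (339 regions, 70.7 to 87.7) and 99.2 per Mb between 60 and 65% (216 regions, 86.4 to 113). At 65% or more it was 95.6 per Mb (59 regions, 72.7 to 123). That last step differed between chromosomes: from the class of 60 to 65% to the class of 65% or more, chromosomes 3, 5, 11 and 15 gave 166 and 118 per Mb, and the other chromosomes 75.03 and 88.2 per Mb. Introns showed the same course at slightly lower values, with 5.93 per Mb under 40%, 65.97 between 55 and 60% and 76.9 at 65% or more. Windows within 1000 bp of a start did not level off and reached 382 per Mb at 65% or more. These intervals cover counting of regions only; the depth of the libraries is unknown.

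**Figure D2:**
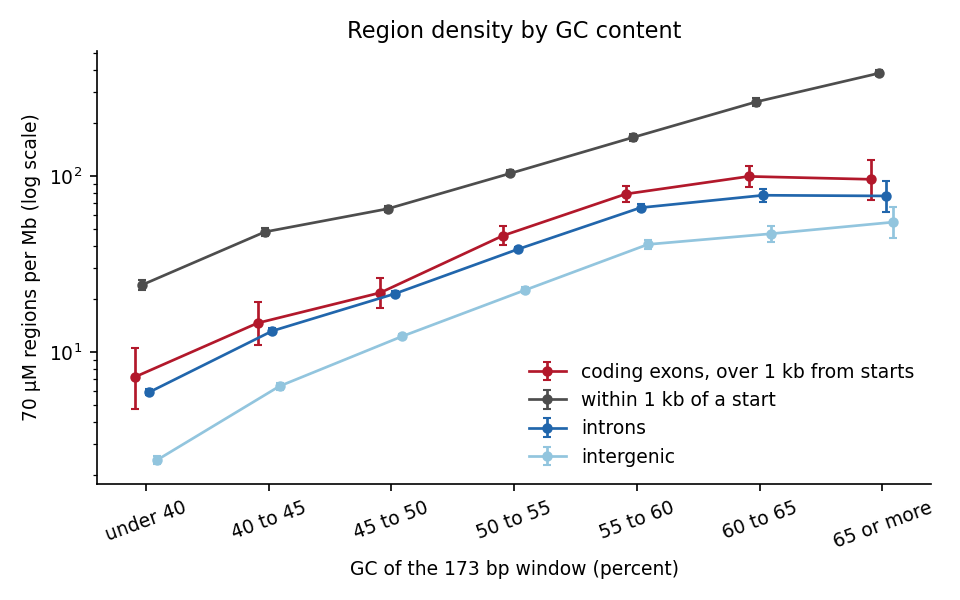
Number of 70 µM regions per Mb of sequence (log scale) by GC percent of the 173 bp window around the midpoint, with exact Poisson 95% intervals, for coding exons over 1 kb from starts, start-site windows, introns and intergenic sequence. Coding exons lie a little above introns in every class and far below start-site windows.

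Without regard to GC, eligible coding sequence held 42.3 regions per Mb (39.8 to 44.9), introns 17.4, intergenic sequence 7.98 and start-site windows 87.4. If each GC class of eligible coding sequence had held regions at the rate of introns, 890 coding-exon regions would have been counted, against 1057 found, a ratio of 1.19. At the rates of exon sequence outside coding parts 1279 would have been counted, a ratio of 0.826, so coding exons held fewer regions than these exons at like GC. At the rates of intergenic sequence 530 would have been counted, a ratio of 1.99, and at those of start-site windows 2681, a ratio of 0.394. At the intron rates, eligible coding sequence would have held 35.6 regions per Mb.

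Coding-exon regions lay nearer to starts, at a median of 3515 bp, than eligible coding bases, at 6086 bp, and density fell with distance. It was 72.4 per Mb between 1 and 2.5 kb (399 regions), 43.99 per Mb between 2.5 and 5 kb (236), 37.3 per Mb between 5 and 10 kb (209), 29.38 per Mb between 10 and 25 kb (164) and 16.6 per Mb beyond 25 kb (49). Median GC of the regions went the same way over these classes, 57.4, 56.79, 56.1, 55.2 and 51.8%. The parts of GC and of distance in the density were not tested against each other. Median scores in the authors' deposited table were 6.30, 8.97, 9.04, 12.41 and 8.80 over the same classes, so that the regions nearest to starts, which were the most frequent, had the lowest scores. At the edge of the rule, 45 coding-exon regions lay between 1000 and 1100 bp from a start (median score 5.45 in the authors' deposited table, median GC 58.6%), and 61 coding regions left out by the rule lay between 900 and 1000 bp (5.95 and 57.1%).

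By position in the gene, regions were more frequent in first and sole coding exons than in internal exons. First coding exons held 61.4 per Mb (exact Poisson 95% interval 46.9 to 78.8), sole coding exons 58.6 (46.04 to 73.6), last coding exons 46.8 (40.9 to 53.4) and internal exons 38.9 (36.0 to 41.8). Internal exons made up 65.9% of the set (exact 95% interval 63.0 to 68.8) and 71.8% of eligible coding sequence. At the GC class rates of all eligible coding sequence, 50.4 regions would have fallen in first coding exons (61 found), 58.0 in sole exons (74 found), 222 in last exons (225 found) and 726 in internal exons (697 found). First and sole exons thus stayed above these counts, with ratios of 1.21 and 1.27, and last and internal exons had ratios of 1.01 and 0.96. Distance to a start does not enter these counts, and its part was not tested.

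GC of eligible coding sequence rose with exon length up to the class of 300 bp to below 500 bp and was lower beyond it. The exon of a region had 209 bp of coding sequence at the median (quartiles 136 and 636, range 18 to 16623), against 185 bp over all eligible coding bases, each of which counts its exon as a midpoint would. Density was 32.2 per Mb in exons with under 100 bp of coding sequence, 58.5 per Mb in those from 300 bp to below 500 bp and 43.3 per Mb in those of 1000 bp or more. Exons under 100 bp had 34.6% of their eligible bases in windows of at least 50% GC, and exons from 300 bp to below 500 bp 65.8%. For exons of 1000 bp or more this share was 53.97%. At the GC class rates the counts would have been 97.2 (103 found), 82.0 (88 found) and 194 (183 found) in these 3 classes. The longest exon with a region was the single giant exon of Ahnak, which encodes a scaffold protein of the cell cortex (chr19:9012563-9012735, score 21.14 in the authors' deposited table, 47.4% GC, no CpG), and 89 of its 32-base words also occurred elsewhere in the genome.

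The number of coding exons in the transcript was the structural feature whose count departed most from the GC class rates. Transcripts with over 40 coding exons held 62 regions, 25.4 per Mb (19.5 to 32.5), where 95.2 would have been counted at those rates, a ratio of 0.651. Transcripts of 6 to 10 coding exons held 243 regions, 46.7 per Mb, where 214 would have been counted. The median transcript had 11 coding exons and 2106 bp of coding sequence, against 13 and 2376 bp over all eligible bases. Along the coding sequence there was little trend: when it was divided into 10 equal parts, density lay between 32.9 and 49.7 per Mb, lowest in part 6 and highest in part 9.

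**Figure D3:**
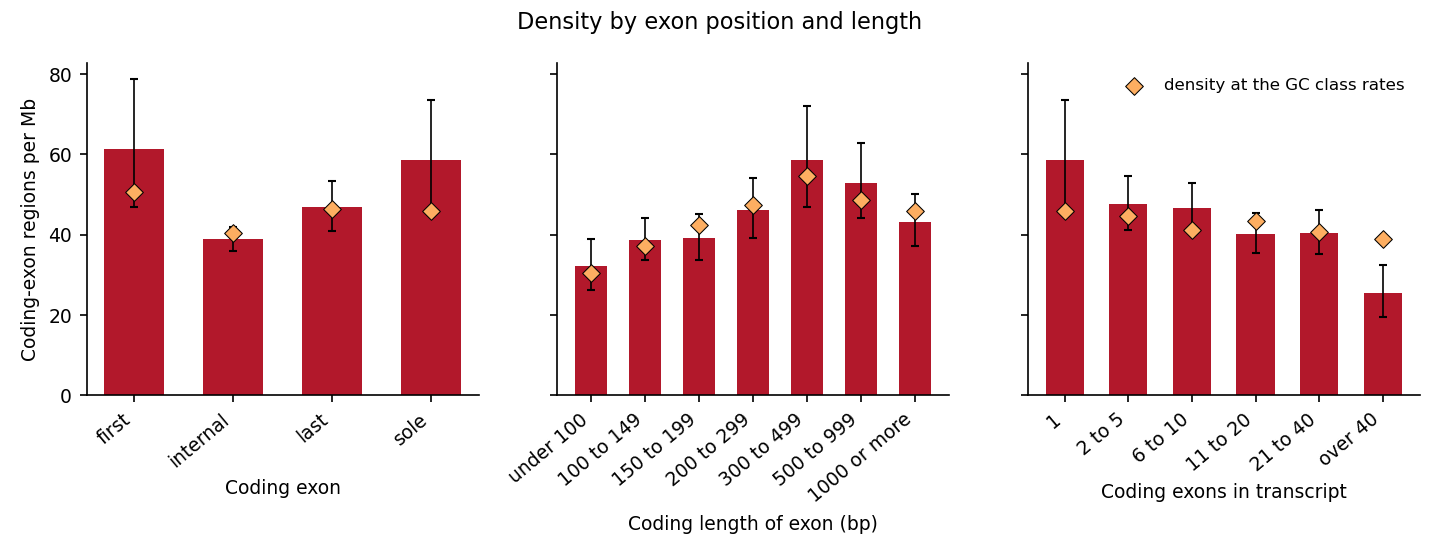
Coding-exon regions per Mb of eligible coding sequence (bars, with exact Poisson 95% intervals) by class of coding exon, by coding length of the exon and by number of coding exons in the transcript. Diamonds show the density at the GC class rates of all eligible coding sequence; they lie within the intervals except in transcripts with over 40 coding exons, where 95.2 regions would have been counted and 62 were found, and just below the interval in sole coding exons, where 58.0 would have been counted and 74 were found.

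Chromosomes differed widely. Chromosome 15 held 121 coding-exon regions, 122 per Mb of eligible coding sequence (exact Poisson 95% interval 102 to 146), chromosome 11 held 156 (84.8 per Mb), chromosome 19 held 60 (78.6) and chromosome 17 held 70 (62.2). At the low end were chromosome 13 with 11 (12.1 per Mb), chromosome X with 10 (9.89) and chromosome Y with none in 0.0916 Mb. At the GC class rates chromosome 15 would have held 48.2 regions, a ratio of 2.51, and chromosome X 27.9, a ratio of 0.359, so the counts departed from the GC class rates in both directions. The density of intronic and intergenic regions went the same way, with 29.1 per Mb on chromosome 15, 27.2 on chromosome 11 and 3.25 on chromosome X. Over 20 chromosomes, Y left out, Spearman's rank correlation between both densities was 0.89, a description of chromosomes that share the same libraries. HT22 is an immortalised line; the copy number of its chromosomes is not in the files, and its part in the densities was not tested.

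**Figure D4:**
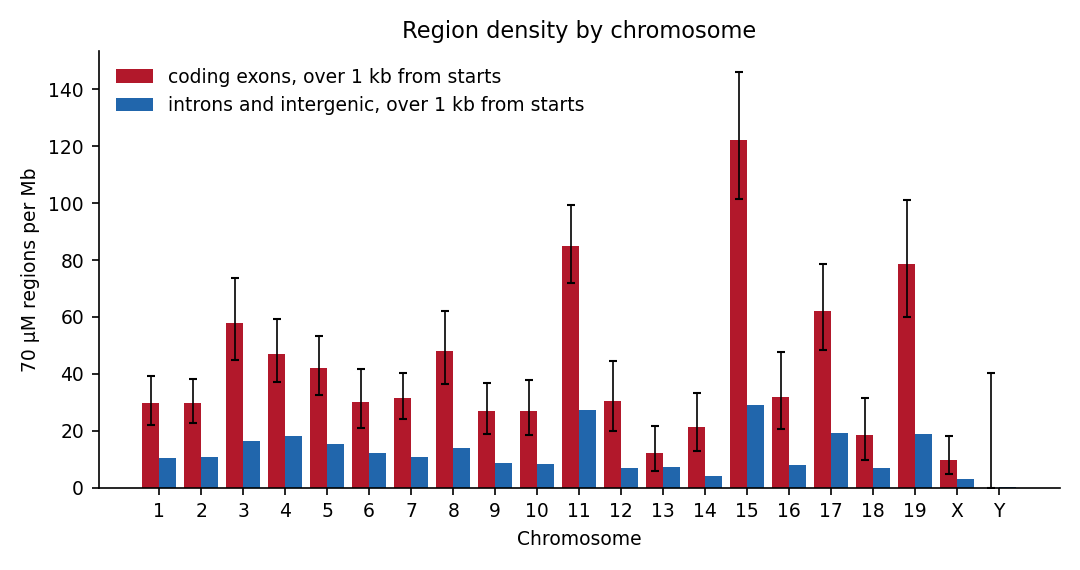
Number of 70 µM regions per Mb on each chromosome, in eligible coding sequence (red, with exact Poisson 95% intervals) and in introns and intergenic sequence over 1 kb from starts (blue). Chromosomes 15 and 11 are highest in both, and X is low in both.

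Chromosomes 3, 5, 11 and 15, set apart with earlier results of these data known, held 411 coding-exon regions (38.9% of the set on 22.3% of eligible coding sequence), 73.7 per Mb, against 33.3 per Mb on the others. The climb with GC was present on both sides. Density was 9.87 per Mb under 40% GC and 166 per Mb at 60 to 65% on these 4 chromosomes, against 6.6 and 75.03 per Mb in the same classes on the others. These 4 chromosomes were not alike. Chromosome 5 held 67 regions, where 71.85 would have been counted at the GC class rates, a ratio of 0.933. The ratio was 1.64 on chromosome 3, which held 58.03 per Mb. Chromosomes 19 and 17, placed with the others, were denser than chromosomes 3 and 5, with 78.56 and 62.16 per Mb and ratios of 1.75 and 1.34.

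Genes with a coding-exon region also carried 70 µM regions at their starts more often than other genes did. Of the 950 genes, 616 had a 70 µM region overlapping the 1000 bp either side of one of their own starts (64.8%, exact 95% interval 61.7 to 67.9), against 7382 of 18085 other genes with eligible coding sequence (40.8%, 40.1 to 41.5). The background over all 19035 genes was 42%. The 2 groups of genes also differed in eligible coding length, with medians of 1496 and 906 bp, and in the share of it in windows of at least 50% GC, with medians of 91.3 and 49.2%. Among genes with at least 90% of eligible sequence in such windows, the shares with a start-site region were 64.4% (491 genes) and 44.4% (4690 genes), and on chromosomes 3, 5, 11 and 15 they were 70.6% and 48.8%. The part of coding length in this difference was not tested. For genes, start-site regions are counted by overlap, and for the classes of region by midpoint. A coding-exon region just past 1000 bp can thus itself reach the start window of its own gene. Genes without a coding-exon region cannot gain in this way, and the part of this in the difference was not tested. Among the 612 genes with a region more than 2500 bp from a start, the share was 61.6%. Regions in a coding exon had another 70 µM region within 1 kb in 22.2% of cases, against 45.9% at start sites, 18.65% in introns and 14.04% between genes.

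Most genes held a single region. Of the 950 genes, 860 had 1 coding-exon region, 78 had 2, 8 had 3, 3 had 4 and 1 had 5. The gene with 5 was Espl1 (ENSMUSG00000058290.4, chromosome 15), which encodes separase, the protease that cuts cohesin at anaphase. In the authors' deposited table its regions had scores of 5.34, 4.38, 9.75, 15.04 and 6.39, in gene order, and they lay in exons 3 (a pair of regions), 14, 15 and 18 of 31. The eligible coding sequence of Espl1 is 3828 bp, 93.2% of it in windows of at least 50% GC, and at the GC class rates 0.246 regions would have been counted. Espl1 also had a 70 µM start-site region.

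The genes with 4 regions were Bahcc1, Plec and Kmt2d. Bahcc1 on chromosome 11, which encodes a bromo-adjacent homology protein of chromatin, had scores of 12.40, 8.42, 18.67 and 4.33 in the authors' deposited table, the middle pair in the same exon 11. Plec on chromosome 15 encodes plectin, the cytolinker of intermediate filaments, and its scores there were 10.76, 3.38, 11.60 and 3.91; the first of these lay in the 6213 bp of the last exon. Kmt2d, also on chromosome 15, encodes a histone H3 lysine 4 methyltransferase of enhancers, and its scores there were 4.54, 4.01, 5.24 and 6.54. Plec and Kmt2d have 12770 and 14683 bp of eligible coding sequence, and at the GC class rates they would have held 1.16 and 1.2 regions; Bahcc1, with 6367 bp, would have held 0.592.

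With 3 regions each, the rule for named genes took Myo18a, an unconventional myosin, Zfp608, Ripor1, Eppk1, which encodes epiplakin, Tnrc18, and Sdk2, a synaptic adhesion protein. At their strongest regions the authors' deposited table gives 22.60, 20.62, 19.01, 13.44, 12.02 and 9.46. Zfp608 and Sdk2 had no 70 µM start-site region, and the other 4 had one. The 3 Eppk1 regions lay in a single coding exon of 10374 bp that repeats itself: 169, 319 and 181 of their 32-base words occurred elsewhere in the genome, which were all words of the first region and most words of the others. A read that lies within such a word cannot be placed by sequence alone, while a longer read may be. Read length is not stated here. In the whole set, 109 regions (10.3%) had at least 1 such word and 36 had over 50% of their words elsewhere. The same share was not counted over eligible coding sequence.

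The regions with the highest scores were not at the genes with the most. After Ccdc130, the next score in the authors' deposited table was 27.89 at Brd1 (chr15:88707038-88707159), a bromodomain protein of histone acetyltransferase complexes, but all 91 of its 32-base words also occur elsewhere in the genome. Clec3b (26.71), the drug exporter gene Slc47a2 (25.71), Nfkb2, an NF-kappaB subunit (25.63), and the synaptic adhesion gene Clstn2 (25.62) came next there. The Clstn2 region (chr9:97582467-97582643) lay 142928 bp from the nearest annotated start, the farthest of the set. Cdk5rap2, of the centrosome (25.52), Mgll, the lipase of the endocannabinoid 2-arachidonoylglycerol (25.26), the DNA polymerase gene Poll (24.98) and Wipf2 (24.90) completed the 10 highest in the authors' deposited table. Of these 10 genes, 6 had a 70 µM start-site region as well. None of the 9 regions other than Brd1's had a 32-base word that occurs elsewhere.

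The widest regions were of another kind. They were at Zbtb10 (681 bp, chr3:9251656-9252336), Txlna (590 bp), Tob2, an antiproliferative gene (568 bp), and the mitochondrial ribosome genes Gadd45gip1 (549 bp) and Mrps7 (525 bp). Their scores in the authors' deposited table lay between 5.04 and 8.37, near or below the median. All but Tob2 were within 1394 bp of an annotated start, just past the edge of the rule.

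Gene classes were described by the number of regions per Mb of eligible coding sequence, beside 42.3 per Mb of all eligible coding sequence, and by the share of genes with a region, beside 4.99% of all genes. Of 27 lists, 8 lay above that density and 19 below, and counts in most lists were small. No list was tested.

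Choline and phosphatidylcholine metabolism, the pathway into which choline itself goes, had 5 regions in 3 of 32 genes (9.38%), 121 per Mb (exact Poisson 95% interval 39.3 to 282), where 1.70 would have been counted at the GC class rates. Pcyt1a encodes the CTP:phosphocholine enzyme that sets the rate of phosphatidylcholine synthesis, and its region was in the last coding exon, 8398 bp from the nearest start. Pla2g6, a calcium-independent phospholipase A2 gene on chromosome 15, held 3 regions, in exons 6, 12 and 17 of 17, with scores of 6.86, 4.34 and 7.59 in the authors' deposited table. Slc44a4, a choline transporter-like gene, had 1 (6.05). Pla2g6 lies on the densest chromosome and gave 3 of the 5. The methionine and folate cycle had none in 29 genes, where 1.63 would have been counted; the exact upper limit was 104 per Mb.

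In glucocorticoid signalling, the field of the series title, 1 of 27 genes had a region (3.704%), 28.5 per Mb (0.722 to 158.9), where 1.75 regions would have been counted. The side on which this list lay depended on the rule: it held 150.7 per Mb at more than 500 bp from a start, where all eligible coding sequence held 50.29, and 85.58 per Mb where at least 50% of a region's bases had to be coding, where all held 40.24. By the rule used here the gene was Hsp90ab1, which encodes the constitutive HSP90 beta chaperone (score 9.18 in the authors' deposited table), and 17 of its 32-base words occur elsewhere in the genome. Another region lay close by, in the neighbouring gene Slc35b2 (chr17:45566834-45566959, score 22.93 in the authors' deposited table). Nr3c1, the glucocorticoid receptor gene of the series title, had no coding-exon region by the rule. Of 37 nuclear receptor and coregulator genes, 2 had 1 each: Med1, the mediator subunit that binds nuclear receptors (19.01 in the authors' deposited table), and Esrra (3.60).

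Among chromatin enzymes, histone acetyltransferases and deacetylases had 5 regions in 4 of 31 genes (12.9%), 78.4 per Mb (25.4 to 183), where 2.85 would have been counted. All 5 were on chromosomes 11 and 15, and chromosomes 3, 5, 11 and 15 hold 20.3% of the list's eligible sequence. The regions were at the acetyltransferase genes Kat2a, which encodes GCN5, a writer of H3K9ac itself (15.68 in the authors' deposited table), and Ep300 (8.91), and at the class IIa deacetylase genes Hdac7 (14.84) and Hdac5 (7.79 and 5.23). Histone and DNA methylation enzymes had 8 in 5 of 42 genes (52.3 per Mb), of which Kmt2d gave 4 and Kdm3b the highest score (14.40 in the authors' deposited table). Chromatin remodellers had 2 in 30 genes (6.67%), at Baz1a (21.14 there) and Chd3 (4.65), 15.6 per Mb.

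Several lists hold genes with long coding sequence. Cytoskeletal linkers had 14 regions in 8 of 30 genes (26.7%), 50.7 per Mb (27.7 to 85.1), close to the 13.3 counted at the GC class rates; Ahnak, the spectrin gene Sptb (19.01 in the authors' deposited table), the envoplakin gene Evpl (18.36) and Flnc (13.50) led it. Of these 14 regions, 8 were on chromosomes 3, 5, 11 and 15, which hold 16.7% of the list's eligible sequence. Without these chromosomes the list held 26.1 per Mb, below the 33.26 of all eligible coding sequence. Without regions that hold a repeated 32-base word, the list held 36.23 per Mb, below the 37.92 of all eligible coding sequence. The list of large surface and matrix receptors, which also takes in the matrix protein gene Fbn1, had 8 in 7 of 30 genes (23.3%, 36.3 per Mb). They were at Lrp5, a Wnt coreceptor (23.71 in the authors' deposited table), Fbn1 (14.17 and 10.45), Fat2 (13.82) and Celsr1 (7.24) among others. Kinesins, dyneins and myosins had 12 in 10 of 102 genes (9.80%), 24.3 per Mb (12.6 to 42.5), where 21.4 would have been counted. Of these 12, 10 were on chromosomes 3, 5, 11 and 15, which hold 33.1% of the list's eligible sequence. Collagens had 5 in 5 of 44 genes (11.4%, 28.7 per Mb, 8.96 counted at the GC class rates), led by Col6a2 (19.01 in the authors' deposited table), Col4a2 (15.36), Col6a3 (11.22) and Col8a2 (9.77). Laminins and integrins had 3 in 3 of 37 genes (8.11%, 23.9 per Mb, 6.10 counted), at Itgal (22.58 there), Lama4 (18.27) and Itgb4 (5.02). These lists, cytoskeletal linkers apart, lay below the 42.3 per Mb of all eligible coding sequence but above 4.99% in the share of genes. The side of large surface and matrix receptors depended on the rule. Beyond 2500 bp from a start they held 38.93 per Mb, above the 33.75 of all eligible coding sequence. Without chromosomes 3, 5, 11 and 15 they held 35.23, above 33.26.

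The list of voltage-gated channels had 3 regions in 112 genes (2.68%), 12.9 per Mb (2.66 to 37.7), where 12.3 would have been counted. They were at the potassium channel genes Kcnh3 (14.22 in the authors' deposited table), Kcnj14 (8.02) and Kcnh4 (4.34). Of these, Kcnj14 encodes an inward rectifier, which is not a voltage-gated channel in the strict sense. All 113 of the 32-base words in the Kcnj14 region occur elsewhere in the genome. Glutamate and GABA receptors had 1 in 47 genes, at Grin3a (18.69 in the authors' deposited table), 11.3 per Mb (0.287 to 63.1), where 3.65 would have been counted. Axon guidance genes had 10 in 9 of 67 genes (13.4%), 64.95 per Mb (31.1 to 119), near the 8.89 counted at the GC class rates. They included the ephrin gene Efna3 (22.63 in the authors' deposited table), Sema4a (20.57 and 14.73), Plxna2 (19.57) and Sema6b (14.44).

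Other families spanned the range. Solute carriers had 22 in 21 of 377 genes (46.8 per Mb, 21.4 counted), led in the authors' deposited table by Slc47a2, Slc35b2, the peptide transporter gene Slc15a3 (22.54) and Slc6a12, which encodes the betaine and GABA transporter (21.80). Zfp zinc finger genes had 17 in 15 of 381 genes (26.4 per Mb, 21.9 counted), led there by Zfp853 (24.07), Zfp608, Zfp128 (19.01) and Zfp341 (19.01). Ubiquitin-specific proteases had 3 in 55 genes (5.45%, 23.4 per Mb, 3.55 counted), at Usp36 (20 there), Usp28 (11.78) and Usp20 (5.28). ADAM and ADAMTS proteases had 2 in 1 of 57 genes (1.75%, 14.9 per Mb, 5.34 counted), both in Adamts5 (4.41 and 3.93 in the authors' deposited table). Ribosomal protein genes are short, with 0.00822 Mb of eligible coding sequence in 42 genes. They had 1 region, at Rpl8 (4.04 in the authors' deposited table), which gives 121.7 per Mb (3.08 to 678), where 0.339 would have been counted. Of the 32-base words of this region, 82 occur elsewhere in the genome. Olfactory and vomeronasal receptors had 1 region in 419 genes (0.239%), 2.60 per Mb (0.0657 to 14.5), where 5.88 would have been counted; it was at Vmn1r233 (19.96 in the authors' deposited table).

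**Figure D5:**
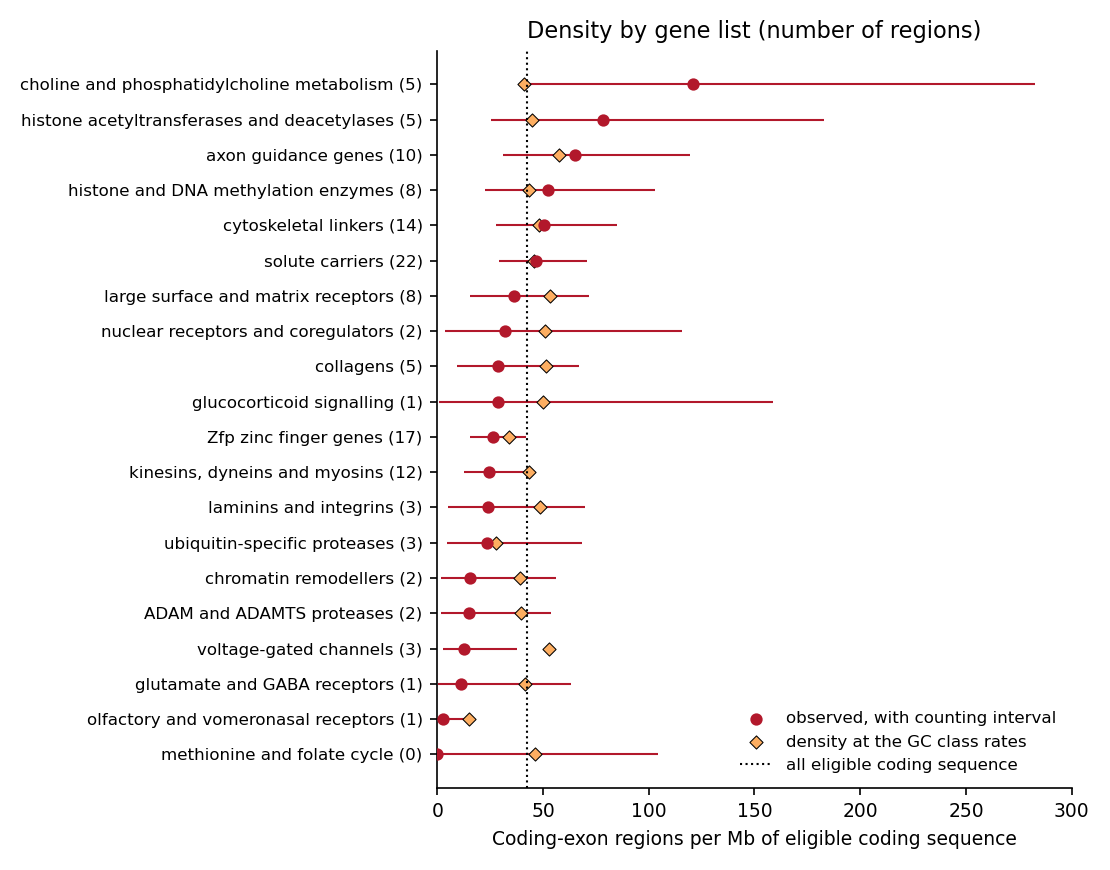
Coding-exon regions per Mb of eligible coding sequence in 20 gene lists with at least 0.03 Mb of it (points, with exact Poisson 95% intervals and the number of regions in brackets). Diamonds show the density at the GC class rates and the dotted line the 42.3 per Mb of all eligible coding sequence; the choline list is highest, on 5 regions, and the methionine and folate list is at 0.

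The cell line was checked against markers as far as a list of differential regions allows. None of 12 neuron markers, 6 astrocyte, 6 oligodendrocyte or 5 microglia markers with eligible coding sequence had a coding-exon region, where 0.891, 0.356, 0.746 and 0.302 would have been counted at the GC class rates, so these lists hold too little sequence to read an absence. Of 7 fibroblast markers, Pdgfra on chromosome 5 had 2 (20.85 and 9.90 in the authors' deposited table), where 0.965 would have been counted for the list. The interval of this list, 11.7 to 348 per Mb, takes in the 42.3 per Mb of all eligible coding sequence. At their starts, 3 of 12 neuron markers, 2 of 6 astrocyte, 2 of 6 oligodendrocyte, 0 of 5 microglia and 7 of 7 fibroblast markers had a 70 µM region, against 42% of all genes with eligible coding sequence. The list shows differences in H3K9ac and not expression, so an unmarked gene may be active at both choline levels.

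Short motifs were counted on both strands in the 173 bp windows. The GC box (GGGCGG) was in 92 coding-exon regions (8.70%, exact 95% interval 7.07 to 10.6) and in 4.40% of all eligible coding windows, with 18.5% at start sites and 3.896% in introns. The higher GC of the regions goes along with this motif, and its part was not tested. The AP-1 motif (TGACTCA) was in 18 (1.70%, 1.01 to 2.68), against 2.28% of eligible coding windows, 3.69% of intronic and 3.93% of intergenic regions. The E-box CACGTG was in 32 (3.03%, against 2.75% of eligible coding windows) and the cAMP response element (TGACGTCA) in 1 (0.0946%, against 0.221%). The glucocorticoid response element written as AGAACA and TGTTCT with 3 bases between them was in 0 of 1057, which allows a share of up to 0.284% (3 counts of 1057), and in 0.00436% of eligible coding windows. A match is a run of letters and not a bound site.

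The 4 regions called at 5 µM under the same rule were all in internal coding exons: in Stk40 (score 25.39 in the authors' deposited table, chr4:126137692-126137841), Sh3gl3, which encodes the brain endophilin A3 (19.42), Eng, which encodes endoglin (13.98), and Rin1, a Ras effector (4.10). Their GC was 56, 47.8, 59.2 and 61.0%. None of these 4 genes held a 70 µM coding-exon region.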

How the data were processed

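The submitters' processing notes name CASAVA 1.8, Bowtie 1.0.0, MACS2 and build mm10. The series' design text names bdgdiff of MACS2 for the comparison of both choline levels. The deposited list gives each region a position and a score, made by the authors and not named in the file; the scaling between libraries is not stated, and the depth per library is unknown. Intervals therefore cover counting of regions only.

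Regions were placed on GENCODE M21 and RefSeq GRCm38.p6, the sequence of mm10, with Python 3.11.15 and numpy 2.4.6. Where coding exons overlapped, the transcript with the longest coding sequence was used. Every eligible coding base served as a possible midpoint for the background. GC class rates are regions per base of eligible coding sequence in 7 classes of window GC. Words of 32 bases were looked up in the genome. The scripts were tested on simulated data.

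The rule, the 27 gene lists, the 10 alternatives and the separation of chromosomes 3, 5, 11 and 15 were chosen with earlier results of these data known. Genes were named by rank: the 10 highest scores, the 10 genes with most regions, the 5 widest regions and up to 4 genes with the highest scores per list. The values of 1 of the lists are not reported here. The second regions of named genes, the neighbours of Hsp90ab1 and the genes called at 5 µM were named after their values were seen.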

Additional observations from a re-analysis of the deposited data

How the results depend on the processing

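Requiring more than 500 bp in place of 1000 bp from a start gave 50.29 regions per Mb, a median score of 7.115, a median exon coding length of 225.5 bp, 60.88% in internal coding exons and 72.84% of genes with a start-site region. Requiring more than 2500 bp left 658 regions in 612 genes, 33.75 per Mb, with a median score of 9.897, GC of 55.87%, an exon length of 196 bp, 71.58% in internal exons and 61.6% of genes with a start-site region. Requiring the whole region inside 1 coding exon left 366 regions in 334 genes, 14.64 per Mb, with a width of 163 bp, GC of 58.49%, an exon length of 836 bp, 42.9% in internal exons and 98.91% wholly in the coding part of the transcript used; this choice favours long exons by construction. Keeping regions at or above the median score of all 70 µM regions left 612 in 581 genes, 24.48 per Mb, with a median score of 14.75, an exon length of 194 bp, 70.92% in internal exons and 60.59% of genes with a start-site region. Without chromosomes 3, 5, 11 and 15 there were 646 regions in 593 genes, 33.26 per Mb, and 61.38% of genes with a start-site region. Density was 39.12 per Mb without the 2 commonest scores and 37.92 per Mb without regions that hold a repeated 32-base word. The cause was not tested where the construction does not show it. The other 76 recomputed main values stayed within the reported value's 95% interval or, for counts, within 1.5 times. Several lists changed side against all eligible coding sequence. Glucocorticoid signalling held 150.7 per Mb beyond 500 bp, 85.58 with at least 50% of bases coding, 55.79 with starts of protein-coding genes only, 39.72 without chromosomes 3, 5, 11 and 15, and 0 beyond 2500 bp or without repeated words. Cytoskeletal linkers held 47.65 beyond 500 bp, 36.23 without repeated words and 26.1 without these 4 chromosomes, where acetyltransferases and deacetylases held 0. The choline list held 0 wholly inside 1 exon, and methylation enzymes 13.07 at or above the median score. Nuclear receptors held 58.12 beyond 500 bp and 48.04 with at least 50% of bases coding, and solute carriers 10.63 wholly inside 1 exon. Large surface and matrix receptors held 38.93 beyond 2500 bp, 27.25 at or above the median score and 35.23 without chromosomes 3, 5, 11 and 15. No paired analysis was possible because the deposited list pools the libraries and no result comes from a test. Replicates could not be left out for the same reason.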
